A study of Rattus norvegicus and Mus musculus with 14 samples.

Results

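The astrocyte marker genes Gfap, Glul and Sparc were followed across every array of a cDNA array series on NMDA signalling in cortical neurons. The members were all probes whose single gene symbol in the platform's probe annotation was one of these 3 names. That rule found 4 probes of 3 genes, of 1152 probes and 342 named genes on the array. Gfap had 2 probes, probe 91 and probe 888, both annotated to the same transcript accession. Glul had probe 175 and Sparc had probe 192.

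Astrocytes are the glial cells that support neurons, take up released glutamate and react to injury. Gfap encodes glial fibrillary acidic protein, the intermediate filament protein by which mature and reactive astrocytes are usually recognised. Glul encodes glutamine synthetase, the enzyme that turns the glutamate taken up by astrocytes into glutamine, which is handed back to neurons. Sparc encodes a secreted, collagen-binding matricellular protein that astrocytes release and that restrains synapse formation. Sparc is also made by endothelial and mesenchymal cells, so it is the least specific of these markers.

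The series held 14 arrays. Of these, 12 were rat embryonic cortical neurons in 2 sets, called MEK and NOS. Each set had 2 experiments with 1 array for each of 3 treatments: the control solution CSS, NMDA, and NMDA together with an inhibitor. NMDA activates the glutamate receptors named after it, which admit calcium. In the MEK set this was PD98059, an inhibitor of MEK activation, and in the NOS set nitroarginine, an inhibitor of nitric oxide synthase. The other 2 arrays were brain cortex of an adult nNOS knockout mouse (c57bl) and of an adult wild-type littermate (c57bl). nNOS is neuronal nitric oxide synthase. The rat strain, the embryonic age, the doses and the exposure times are not given in the sources used here. There were n = 2 arrays in a rat group and n = 1 for a mouse genotype. The labels do not state whether a group's arrays were hybridised with RNA of independent cultures. The 2 arrays of a rat group came from different experiments, and the main fit did not pair treatments by experiment. Its p-values therefore cover the spread between experiments, and that spread may be technical. A single spread per probe was estimated over all 12 rat arrays. The SE of a MEK set comparison therefore also holds the difference between the NOS experiments.

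Each array had been deposited as Z-scores, in which 1 unit is close to the SD of that array's probes, and fold changes cannot be recovered. A score is set against the same probe on other arrays and not against another gene's score. Higher scores were read as brighter spots, since the direction is not stated. The control column of MEK experiment 1 stood 1 row out of register. As deposited its correlation with the median array was 0.103, and moved down by 1 row it was 0.823, so it was used moved. After the move the pairwise r across probes was 0.858 to 0.995 within the MEK set. Between the NOS experiments it was 0.454 to 0.617. Results that rest on either are given with and without them.

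The sequences just upstream of the annotated starts of the 3 genes are shown because the genes are read together as 1 marker group. They are 120 bases each from RefSeq (rat, GRCr8), 5′ to 3′ on the gene's strand, and capitals mark matches to the searched motifs. Glul has 2 annotated starts in the table.
Gfap, chr10:88361662-88361781, minus strand: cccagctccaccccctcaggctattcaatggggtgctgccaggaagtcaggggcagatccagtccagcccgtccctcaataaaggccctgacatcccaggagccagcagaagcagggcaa
Glul, chr13:68519380-68519499, plus strand: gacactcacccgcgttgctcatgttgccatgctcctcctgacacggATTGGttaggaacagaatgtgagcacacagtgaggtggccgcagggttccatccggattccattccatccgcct
Glul, chr13:68575946-68576065, plus strand: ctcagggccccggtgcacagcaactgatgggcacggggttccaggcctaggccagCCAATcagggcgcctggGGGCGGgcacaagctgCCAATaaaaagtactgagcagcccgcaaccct
Sparc, chr10:40038817-40038936, minus strand: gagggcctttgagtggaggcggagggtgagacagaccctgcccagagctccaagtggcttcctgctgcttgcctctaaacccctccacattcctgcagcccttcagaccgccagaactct

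Of the motifs searched on both strands, the CCAAT box was read as the letters CCAAT and the GC box as GGGCGG. The TATA box was read as TATAAA. The STAT and AP-1 motifs were read as TTCNNNGAA for the former and as TGANTCA for the latter. The downstream Glul window held 2 CCAAT matches, 32 and 65 bases before the start, and 1 GC box match at 48. The upstream Glul window held 1 CCAAT match, on the opposite strand and 74 bases before the start. The Gfap and Sparc windows held none of these letters. Of the 33469 windows of this length in the table, 19.9% held the CCAAT box, 23.7% the GC box, 6.66% the TATA box, 3.41% the STAT motif and 3.01% the AP-1 motif. The matches are descriptions of letters and not binding sites.

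The scores of Gfap probe 91, Glul and Sparc spread further between the means of the 4 experiments than between the treatments of any 1 experiment, and those of Gfap probe 888 did not. Gfap probe 91 was at -1.01 (control), -1.49 (NMDA) and -1.58 (PD98059) in MEK experiment 1, and at -1.39, -1.41 and -1.39 in MEK experiment 2. In NOS experiment 1 it was at -0.668 (control), -0.491 (NMDA) and -0.648 (nitroarginine), and in NOS experiment 2 at -0.0473, 0.0209 and 0.407. All 6 NOS set arrays therefore lay above all 6 MEK set arrays, and the 3 arrays of NOS experiment 2 above those of NOS experiment 1. Over all probes, 14.9% had every NOS set array above every MEK set array, and 47% had NOS experiment 2 wholly above NOS experiment 1. Expressed as a rank within the array, Gfap probe 91 had a mean percentile of 12 in both MEK experiments, 31.5 in NOS experiment 1 and 60.3 in NOS experiment 2. The running median of the 25 probes centred on its row, itself included, had means of 0.247 and 0.102 in MEK experiments 1 and 2. In NOS experiments 1 and 2 the means were -0.101 and -0.0303. The part of this local level was not tested.

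**Figure D1:**
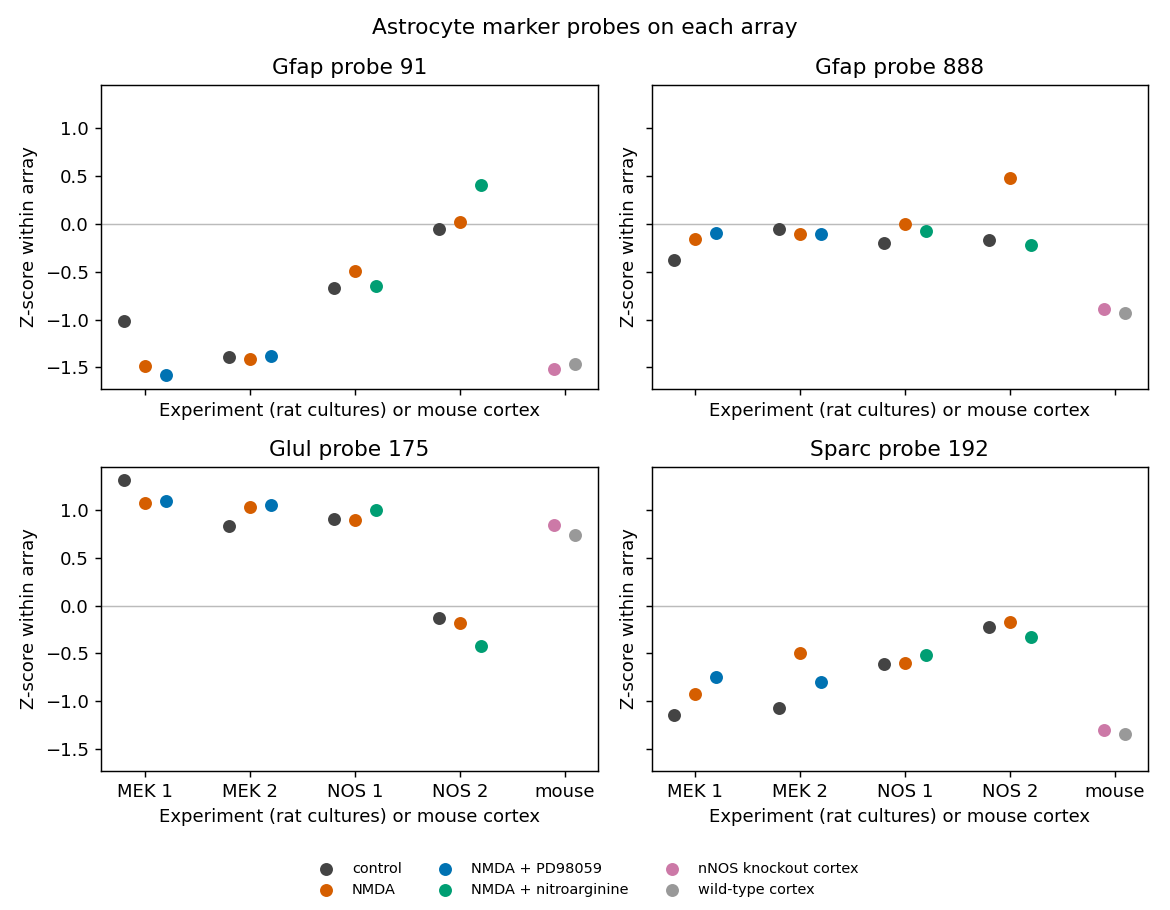
Z-score of each probe on each of the 14 arrays, 1 point per array, by experiment of the rat cultures (MEK 1, MEK 2, NOS 1, NOS 2) or mouse cortex, coloured by treatment or genotype. Gfap probe 91 and Sparc sit higher in NOS experiment 2 than in the other rat experiments on average, and Glul lower. Among the rat arrays Gfap probe 888 changes little except for 1 array at 0.485, and both mouse arrays lie below them.

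Gfap probe 888 did not share that order. It was at -0.38 (control), -0.16 (NMDA) and -0.09 (PD98059) in MEK experiment 1 and at -0.0508, -0.104 and -0.107 in MEK experiment 2. It was at -0.197 (control), -0.0016 (NMDA) and -0.0721 (nitroarginine) in NOS experiment 1 and at -0.167, 0.485 and -0.216 in NOS experiment 2. The sets and the experiments overlapped on this probe, and only the NMDA array of NOS experiment 2 stood above the rest. The running median of the 25 probes centred on its row, itself included, was also raised on that array, at 0.254. It was -0.167 and -0.268 on the control and nitroarginine arrays of that experiment. The value of -0.167 is the probe's own score on the control array. The part of that local level in the result was not tested.

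The pair of Gfap probes, which lie 797 rows apart, thus gave different accounts of the same gene. Their scores correlated at r = 0.25 (Spearman -0.028) over the 12 rat arrays, and at 0.021 (Spearman 0.18) over the 9 arrays outside NOS experiment 2. With each experiment's mean removed, r was -0.46 over the 12 arrays. These arrays share experiments, so the correlations are descriptions only. Probe 888 minus probe 91 ran from -0.62 to 1.49 units and was above 0 on 10 of 12 rat arrays. The exceptions were the control and nitroarginine arrays of NOS experiment 2. The annotation cannot tell which probe follows the Gfap transcript more closely, and no statement on Gfap below rests on 1 probe without naming it.

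**Figure D2:**
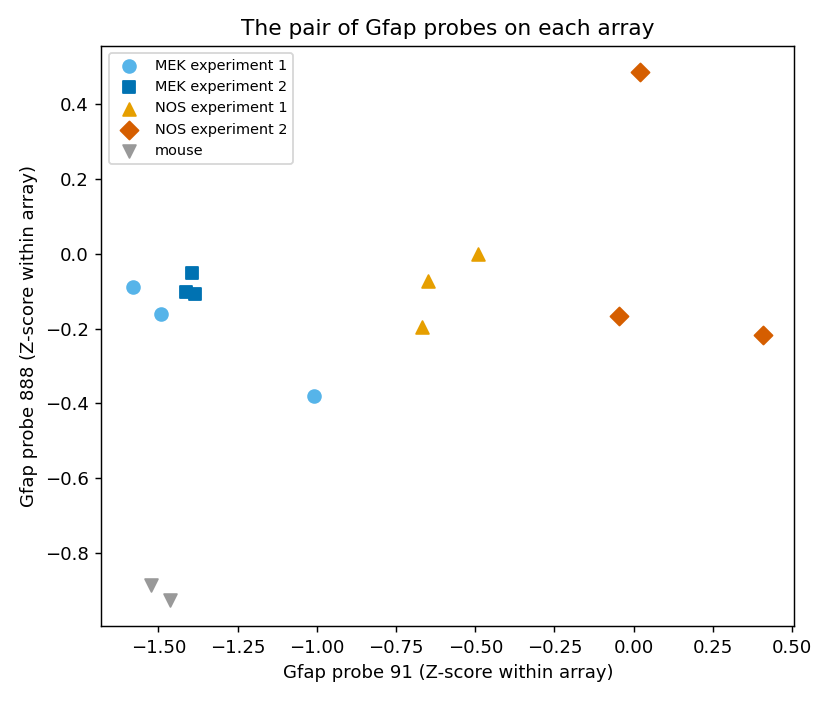
Z-score of Gfap probe 888 against that of Gfap probe 91, 1 point per array, with marker shape and colour giving the rat experiment or mouse cortex. Across the rat arrays probe 91 spreads from -1.58 to 0.407 while probe 888 lies between -0.38 and 0.485, and both mouse arrays lie at the lower left.

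Glul scored lower on every array of NOS experiment 2 than on any other rat array. It was at 1.31 (control), 1.07 (NMDA) and 1.09 (PD98059) in MEK experiment 1 and at 0.834, 1.03 and 1.05 in MEK experiment 2. It was at 0.903 (control), 0.899 (NMDA) and 1.002 (nitroarginine) in NOS experiment 1 and at -0.125, -0.183 and -0.419 in NOS experiment 2. NOS experiment 2 lay wholly below NOS experiment 1, with a mean of -0.243 against 0.935. Of all probes, 28.6% had NOS experiment 2 wholly below NOS experiment 1. The 3 arrays of MEK experiment 2 also lay wholly below those of experiment 1, as 6.16% of probes did, with means of 0.972 and 1.16. The running median of the 25 probes centred on the Glul row fell too, from a mean of 0.535 in NOS experiment 1 to -0.16 in NOS experiment 2. Glul is among those probes, and on the NMDA array of NOS experiment 2 the median was its own score of -0.183. The part of that local level in the result was not tested.

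Sparc, like Gfap probe 91, had higher means in the NOS than in the MEK experiments, over a narrower range. It was at -1.14 (control), -0.92 (NMDA) and -0.75 (PD98059) in MEK experiment 1 and at -1.07, -0.499 and -0.802 in MEK experiment 2. It was at -0.613 (control), -0.605 (NMDA) and -0.519 (nitroarginine) in NOS experiment 1 and at -0.227, -0.174 and -0.323 in NOS experiment 2. NOS experiment 2 lay wholly above NOS experiment 1 (means -0.241 and -0.579), as 47% of probes did. The sets overlapped only through the NMDA array of MEK experiment 2. The running median around the Sparc row had means of 0.257 and 0.112 in MEK experiments 1 and 2. It was -0.0487 and -0.0801 in NOS experiments 1 and 2, and its part was not tested.

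Such separation was common, since 75.5% of all probes had the arrays of NOS experiment 2 wholly above or wholly below those of NOS experiment 1. Between the genes, Gfap probe 91 and Glul correlated at r = -0.86 over the 12 rat arrays and at -0.25 outside NOS experiment 2. Gfap probe 91 and Sparc correlated at 0.75 and 0.39, and Glul and Sparc at -0.78 and -0.37, in the same order. With experiment means removed, the values were -0.01, -0.54 and 0.20. The scores of the 3 genes thus did not all rise and fall together on these arrays, and those of the pair of Gfap probes did not either. Whether this reflects the transcripts or the arrays was not tested. In such bulk samples fewer astrocytes and less RNA per astrocyte cannot be told apart.

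The effect of NMDA was read from the NMDA against the control arrays of the cultures. None of the 4 probes passed in either set or over both (limma, Benjamini-Hochberg adjustment over 1152 probes), where 0% of all probes were called. Over both sets 11 probes had an unadjusted p under 0.05. With experiment as a block 128 probes did, and again 0% were called (limma). Over both sets NMDA minus control was 0.25 units for Gfap probe 888 (SE 0.17), 0.21 for Sparc (SE 0.18), -0.027 for Glul (SE 0.38) and -0.064 for Gfap probe 91 (SE 0.27). The adjusted p was 0.9997 for each (limma). The median of the 4 was 0.094, beside 0.0004 over all probes.

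Sparc was higher under NMDA in 4 of 4 experiments, by 0.22 and 0.575 in MEK experiments 1 and 2 and by 0.0083 and 0.0538 in NOS experiments 1 and 2. Its exact sign-flip permutation p over the 4 differences was 0.125 (two-sided), the smallest that 4 pairs allow. Of all probes, 10.2% were above 0 in all 4 experiments. Within the MEK set both NMDA arrays lay above both control arrays, as 24.5% of probes did, with a difference of 0.40 (SE 0.26; limma, adjusted p = 0.998). Within the NOS set the difference was 0.031 (SE 0.26; limma, adjusted p = 0.9998). The NOS minus MEK difference of the NMDA effect was -0.37 (SE 0.37; limma, adjusted p = 0.999), so the sets were not shown to differ. With the control column of MEK experiment 1 left as deposited, the MEK set value turned to -0.21. Without that array it was 0.36 with no block and 0.46 with experiment as a block. Without the NMDA array of MEK experiment 1 it was 0.61, and without that of MEK experiment 2 it was 0.19.

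Gfap probe 888 was higher under NMDA in 3 of 4 experiments, by 0.22, -0.0528, 0.195 and 0.652 in MEK experiments 1 and 2 and NOS experiments 1 and 2 (exact sign-flip permutation p = 0.25, two-sided). The largest of these came from the single array at 0.485. In the NOS set the difference was 0.42 (SE 0.24; limma, adjusted p = 0.9998) and without NOS experiment 2 it was 0.19. In the MEK set it was 0.084 (SE 0.24) and turned to -0.081 without the control array of MEK experiment 1. Gfap probe 91 gave -0.48, -0.019, 0.177 and 0.068 in the same order of experiments, below 0 in both MEK and above 0 in both NOS experiments, as 4.69% of probes were (exact sign-flip permutation p = 0.875, two-sided). In the MEK set both NMDA arrays lay below both control arrays, as 20% of probes did. The test of the difference between the sets gave 0.37 (SE 0.54; limma, adjusted p = 0.999). The running median around its row was 0.46 on the control array of MEK experiment 1 and 0.06 on the NMDA array, and its part was not tested.

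Glul, the glutamate-converting enzyme, had differences of -0.24, 0.195, -0.0041 and -0.0576 in that order (exact sign-flip permutation p = 0.625, two-sided). In the NOS set NMDA and control arrays of the same experiment were thus close. In the MEK set the sign differed between experiments, and without the control array of MEK experiment 1 the value moved from -0.022 to 0.22. Left as deposited, that column gave 1.43, since it then held the score of another probe. Glul therefore had no direction shared by the 4 experiments under NMDA.

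**Figure D3:**
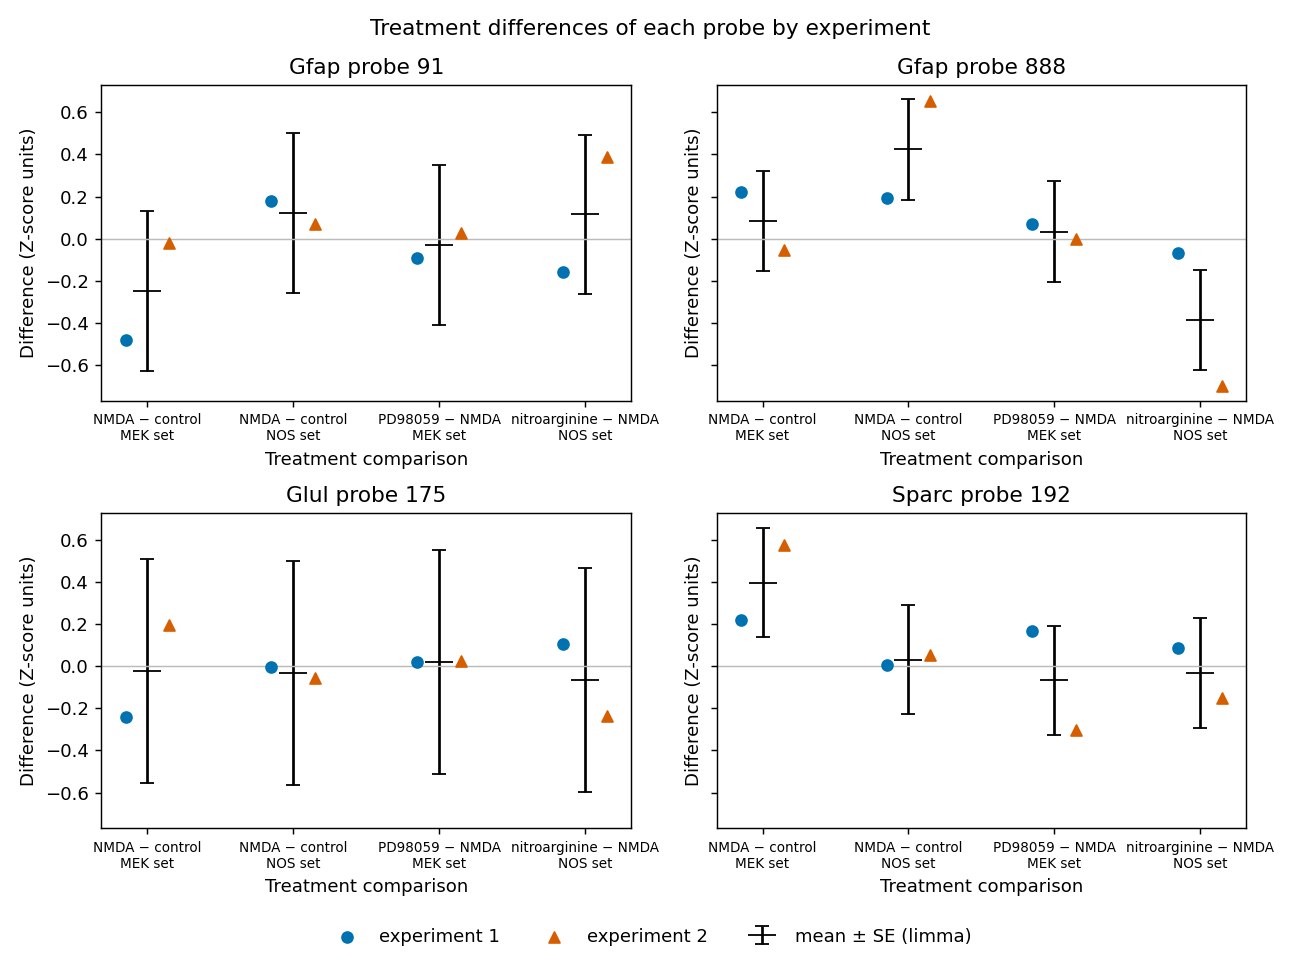
Differences between treatments in Z-score units for each probe, with a circle for experiment 1 and a triangle for experiment 2, and a bar at the limma mean with its SE (n = 2 arrays per group). Sparc lies above 0 for NMDA minus control in both sets, and Gfap probe 888 lies below 0 for nitroarginine minus NMDA in both NOS experiments, and none of the differences passed the test.

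The effect of MEK inhibition during NMDA exposure was read from PD98059 with NMDA against NMDA alone. None of the 4 probes passed (limma, 0% of probes called). An unadjusted p under 0.05 was found for 0 probes, and for 5 with experiment as a block (limma). PD98059 minus NMDA was 0.022 units for Glul (SE 0.53), 0.033 for Gfap probe 888 (SE 0.24), -0.031 for Gfap probe 91 (SE 0.38) and -0.066 for Sparc (SE 0.26), with an adjusted p of 0.9999 for each (limma). These SEs also hold the difference between the NOS experiments. With experiment as a block they were 0.17 (Glul), 0.18 (Gfap probe 888), 0.19 (Gfap probe 91) and 0.16 (Sparc). The adjusted p was then 0.9998 for each (limma). In experiments 1 and 2 the Glul differences were 0.02 and 0.024, above 0 in both as 24.4% of probes were, and those of Sparc were 0.17 and -0.302. Set against control, Sparc was higher with NMDA and PD98059 in both experiments, by 0.39 and 0.272, as 28.6% of probes were (mean 0.33, SE 0.26; limma, adjusted p = 0.999). This comparison shares its control arrays with that of NMDA. The other probes against control were at -0.28 (Gfap probe 91), 0.12 (Gfap probe 888) and -0.0005 (Glul).

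Nitroarginine was compared with NMDA alone in the NOS set to ask what blocking nitric oxide synthase did. None of the 4 probes passed (limma, 0% called). An unadjusted p under 0.05 was found for 1 probe, and for 42 with experiment as a block (limma). Gfap probe 888 was lower with nitroarginine in both experiments, by -0.0705 and -0.702, as 31.4% of probes were (mean -0.39, SE 0.24; limma, adjusted p = 0.998). Most of that difference is the single NMDA array at 0.485, and without NOS experiment 2 it was -0.07. Gfap probe 91 was at -0.157 and 0.386 in experiments 1 and 2, Glul at 0.104 and -0.236, and Sparc at 0.0854 and -0.149. These 3 probes changed sign between experiments, so no direction can be given. Against control, nitroarginine gave 0.24 (Gfap probe 91, SE 0.38), 0.038 (Gfap probe 888, SE 0.24), -0.097 (Glul, SE 0.53) and -0.0009 (Sparc, SE 0.26).

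Adult mouse cortex had lower Gfap probe 888 and Sparc scores than any rat culture. Gfap probe 888 was at -0.887 in the nNOS knockout and -0.926 in the wild type, against -0.38 to 0.485 on the 12 rat arrays. Sparc was at -1.30 and -1.34, against -1.14 to -0.174. Over all probes, 6.08% had both mouse arrays below all 12 rat arrays. Gfap probe 91 was at -1.52 and -1.46, inside the rat range of -1.58 to 0.407, and Glul at 0.844 and 0.742, inside -0.419 to 1.31.

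With the 4 rat experiment means (3 arrays each) set against the 2 mouse arrays, mouse minus rat was -0.82 units for Gfap probe 888 (SE 0.21; limma, adjusted p = 0.216) and -0.68 for Sparc (SE 0.26; limma, adjusted p = 0.451). It was -0.68 for Gfap probe 91 (SE 0.45; limma, adjusted p = 0.656) and 0.088 for Glul (SE 0.41; limma, adjusted p = 0.965). None passed, and 0% of probes were called, with 110 at an unadjusted p under 0.05. The median of the 4 was -0.68, beside 0.039 over all probes. The exact permutation p over these 6 values was 0.0667 for Gfap probe 888 and for Sparc, the smallest that 4 against 2 allow, 0.133 for Gfap probe 91 and 1 for Glul (two-sided). Without NOS experiment 2 limma called Gfap probe 888 (-0.78, adjusted p = 0.0103) and Sparc (-0.55, adjusted p = 0.0358), together with 25.9% of all probes. Gfap probe 91 was then at -0.37 and was not called, and Glul turned to -0.23. With all 12 rat arrays as 6 groups limma called Gfap probe 888 (adjusted p = 0.0151), together with 6.94% of all probes. That fit takes the 12 arrays as independent, though arrays of the same experiment may share cultures. Species, age, culture and tissue all differ between the groups and cannot be told apart, and the probes carry rat annotation. The rat experiment means also average control, NMDA and inhibitor arrays, and the mouse group joins a knockout and a wild type. Their part cannot be told apart either. In the fit of experiment means a single mouse array had the same weight as a mean of 3 rat arrays.

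**Figure D4:**
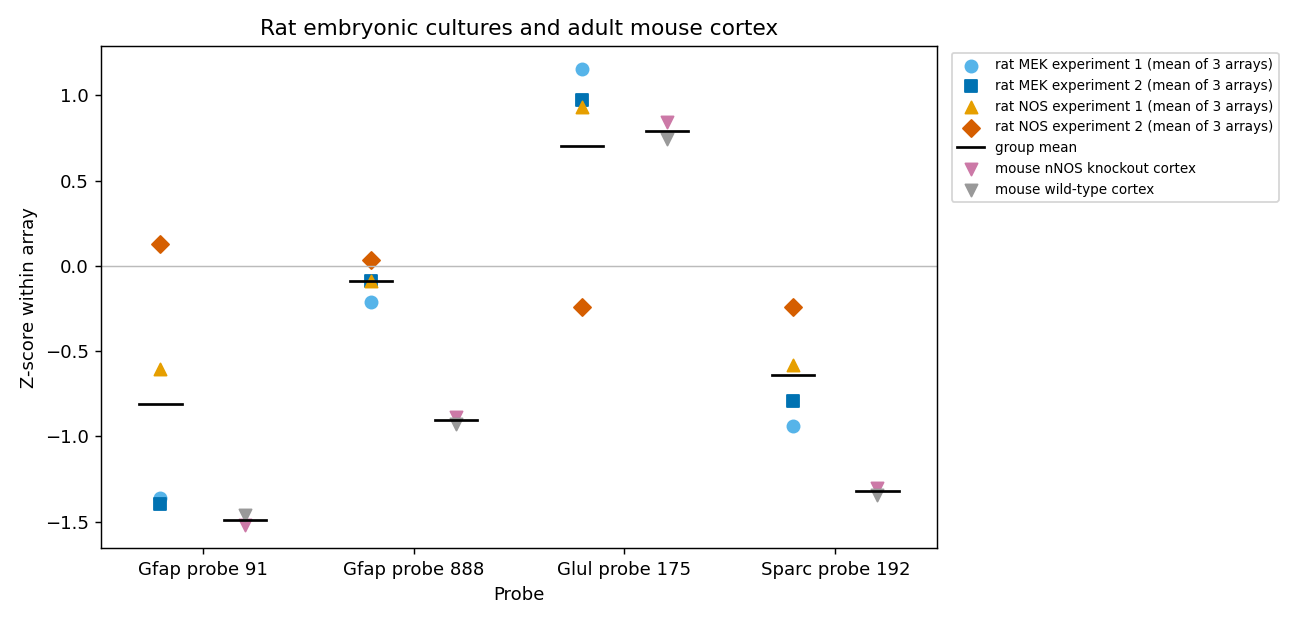
Z-score of each probe as the mean of 3 arrays for each rat experiment and as single arrays for the mouse cortices, with a line at each group's mean. The mouse arrays lie below all rat experiments for both Gfap probes and Sparc, though single rat arrays reach below them for Gfap probe 91, and within the rat range for Glul.

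Cortex of the nNOS knockout and of the wild-type littermate gave nearly the same scores, with 1 array each and no test. Knockout minus wild type was -0.059 units for Gfap probe 91, 0.039 for Gfap probe 888, 0.10 for Glul and 0.041 for Sparc. Of all probes, 2.34% differed by more than 0.5 units either way, and none of the 4 did. The differences were smaller in size than those of most probes, at percentiles 23.4, 14.8, 41.6 and 15.2 of absolute differences in that order.

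Few other markers were measured, so the cell make-up of the cultures can be checked only in part. Of 29 astrocyte genes listed, only Gfap, Glul and Sparc were on the array under their own symbol. Defining astrocyte genes such as Aqp4, S100b, Slc1a2 and Aldh1l1 had no probe of that name. Of 28 neuronal genes 5 had a probe (Dpysl5, Nefl, Nsg1, Stmn2 and Uchl1, 6 probes), of 15 fibroblast and pericyte genes 5 (7 probes), of 15 progenitor genes 1 (Hes6), of 12 microglial genes 1 (Csf1r), and of 12 oligodendrocyte and 9 endothelial genes 0. No member of these lists passed under NMDA, with either inhibitor against NMDA, or between mouse and rat (limma). Under NMDA over both sets, 5 of 6 neuronal probes were above 0 with a median of 0.30 units, and 5 of 7 fibroblast and pericyte probes with a median of 0.16, beside a median of 0.0004 over all probes. Of all probes, 50.1% were above 0. The largest neuronal values, 0.43 and 0.53, were both of Uchl1. Col1a2 and Fn1 each had 2 of the 7 fibroblast and pericyte probes. In mouse minus rat the medians were 0.023 and -0.20, beside 0.039.

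Among the neuronal probes Stmn2, encoding the microtubule regulator SCG10 of growing neurites, was at -0.699 and -0.701 in the mouse arrays. In the rat experiment means Stmn2 was at -0.352 to 0.021. Its mouse minus rat difference was -0.54 (SE 0.22; limma, adjusted p = 0.48). Nefl, the neurofilament light chain, differed the other way, at -0.877 and -0.812 against -1.60 to -1.12 (0.43, SE 0.23; limma, adjusted p = 0.576). Csf1r, the receptor that microglia depend on, was at 0.847 and 1.002 in mouse cortex and at 0.36 to 1.07 in the rat experiment means.

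The partners of each member in its own pathway were as sparsely covered. Of 17 genes of glutamate and glutamine handling, Glul and Got2, the mitochondrial aspartate aminotransferase, had probes. Got2 was at -0.503, -0.453, -0.0707 and 0.434 in MEK experiments 1 and 2 and NOS experiments 1 and 2, opposite in order to Glul, and at 0.747 and 0.666 in the mouse arrays (mouse minus rat 0.85, SE 0.31; limma, adjusted p = 0.412). Of 14 intermediate filament genes, Gfap, Lmna and Nefl had probes, 4 in all. Under NMDA over both sets 2 of 4 were above 0, with a median of 0.12 units. Nefl was at 0.36 (limma, adjusted p = 0.9997) and Lmna, a nuclear lamin, at -0.0041.

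Of 32 genes of the SPARC family and extracellular matrix, Col1a2, Fbn1, Fn1, Sparc and Thbs1 had 7 probes. Under NMDA 5 of 7 were above 0 over both sets, beside 50.1% of all probes, with a median of 0.16. Both Col1a2 probes, which report a fibrillar collagen chain of the kind SPARC binds, were at 0.22 and 0.26, and those of Fn1, fibronectin, at -0.007 and -0.19. In mouse minus rat 3 of 7 were above 0, beside 53.2% of all probes, with a median of -0.20. Sparc had the lowest value of these, followed by Fn1 probe 281 at -0.52 (SE 0.24) and Fbn1, fibrillin, at -0.41 (SE 0.40), and no member passed (limma).

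The named probes whose scores ran most like each member were found over the 12 rat arrays, as a description with no test, since the arrays share experiments. For Gfap probe 91 these were Eef1g (r = 0.97), Psd (0.97), Sh3glb2 (0.96), Eef1a1 (0.96) and Rpl10 (0.96), and over the 9 arrays outside NOS experiment 2 these stayed at 0.87 to 0.96. Of 382 named probes, 37 were above 0.9. For Gfap probe 888 they were Stmn2 (0.87), Mapk9 (0.74), Dmxl2 (0.69), Mapkap1 (0.68) and COX3 (0.67), but over 9 arrays they ran from -0.15 to 0.77. No gene was thus among the closest 5 of both Gfap probes.

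For Glul the closest were Dgcr8 (0.99), Shmt2 (0.98), Tnfaip6 (0.98), Memo1 (0.98) and Cbfa2t3 (0.98), with 59 of 383 above 0.9. Outside NOS experiment 2 they ran from 0.54 (Memo1) to 0.97 (Dgcr8). The Dgcr8 probe is the next row of the array to Glul. For Sparc the closest were Npr3 (0.92), Lancl2 (0.91), Ppp2r5c (0.91), Ist1 (0.90) and Eef2 (0.90), which stayed at 0.74 to 0.88 over 9 arrays. None of these lists held a named astrocyte marker. Little can be read from this, since of the listed astrocyte genes only Gfap, Glul and Sparc were measured. A gene's own probes were also left out of its search.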

How the data were processed

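The authors deposited scores: each column of 1152 probes has a mean near 0 and an SD of 0.857 to 0.999, so each array had been turned into Z-scores. How this was done, the scale before it, the background correction and any filter are not given in the sources used here. Column medians ran from -0.151 to 0.237. Centring is thus by array, and a change common to all probes is removed.

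Of 1152 probes, 384 had 1 gene symbol, 6 several and 762 none in the platform's annotation, which is old. The control column of MEK experiment 1 was moved down by 1 row, which leaves probe 1 without a value there. Scores, for which the designed test on log or normalized values was kept, entered limma (version 3.58.1, R 4.3.3): 6 group means over 12 rat arrays, 6 residual degrees of freedom, two-sided tests, Benjamini-Hochberg adjustment over 1152 probes, threshold 0.05. The mouse arrays were fitted against 4 rat experiment means. The fit was run on simulated data with independent noise on each array, and only the error of the estimated differences had to stay small. That run does not cover noise shared within an experiment.

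Experiment numbers come from the titles. Within the NOS set, arrays of 1 experiment deviated together from their group means (r = 0.874 to 0.930), and within the MEK set r was -0.145 to 0.073, so experiment as a block was an alternative. Other alternatives were normalizations, filters, moderation and left-out arrays. Members of the set were named in every comparison. Per member the 5 most correlated named probes were named. List members were to be named where past the threshold or, where none was, by the largest difference each way. This was not done for every list and comparison. Under NMDA over both sets Uchl1 probe 1074 (0.53) and Dpysl5 (-0.32) were the neuronal extremes. In mouse minus rat Igf2 (-0.70) was the lowest of the fibroblast and pericyte list. Lmna, Fbn1, Fn1 probe 281 and the smaller Col1a2 and Fn1 values were chosen after their values were seen. Members and lists were chosen with earlier results of these data known. Figures used Python 3.11.15 with matplotlib 3.10.9.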

Additional observations from a re-analysis of the deposited data

Results flagged for a closer look

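Of 20 checks for an array far from the others of its group, 4 found one, where about 1 in 20 would by chance. In the MEK set (6 arrays) the control array of experiment 1, the one whose column was moved by 1 row, stood above the others on Gfap probe 91, at -1.01, and below them on Gfap probe 888, at -0.38. In the NOS set (6 arrays) the NMDA array of experiment 2 stood above the others on Gfap probe 888, at 0.485. Among the 4 NMDA arrays of both sets that same array was far below the others on Glul, at -0.183, as were the other arrays of its experiment.

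The NMDA effect on Gfap probe 91 was below 0 in both MEK experiments and above 0 in both NOS experiments. The difference between the sets was 0.37 units (SE 0.54), which did not pass (limma, adjusted p = 0.999), and without the control array of MEK experiment 1 the MEK set value was -0.057.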

How the results depend on the processing

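Over all alternatives, 628 of 709 values of the 4 probes kept their direction and their side of the threshold, 78 changed sign and 3 came to pass. All sign changes were of values that did not pass, and the lowest adjusted p of a member in any treatment comparison was 0.329 (limma). That was Sparc in the MEK set with experiment as a block, where its difference of 0.40 had an SE of 0.16. The block changed no call of a member and none of the counts of called probes. With 2 arrays a group and Z-scores in place of intensities, signal over background is unknown and small differences could not be resolved.

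With the MEK experiment 1 control column as deposited, NMDA minus control turned to 0.70 (Glul) and -0.091 (Sparc) over both sets and to -0.16 (Gfap probe 888), 1.43 (Glul) and -0.21 (Sparc) in the MEK set. The NOS minus MEK difference turned to 0.24 (Sparc), and PD98059 minus control to -0.12 (Gfap probe 888), 1.45 (Glul) and -0.28 (Sparc). That column then holds the neighbouring probes' scores. With experiment as a block and that array left out, NMDA minus control was 0.066 (Gfap probe 91) and 0.083 (Glul) over both sets and 0.010 (Gfap probe 91), -0.071 (Gfap probe 888) and 0.20 (Glul) in the MEK set, and PD98059 minus control was -0.038 (Gfap probe 888) and 0.22 (Glul).

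Without NOS experiment 2, the NOS minus MEK difference of Glul was 0.018. Nitroarginine minus NMDA was -0.16 (Gfap probe 91), 0.10 (Glul) and 0.085 (Sparc), and nitroarginine minus control 0.0998 (Glul) and 0.094 (Sparc). Mouse minus rat was then -0.78 (Gfap probe 888), -0.55 (Sparc), -0.37 (Gfap probe 91) and -0.23 (Glul), with 298 probes called in place of 0. With all 12 rat arrays as 6 groups, 80 probes were called, and Gfap probe 888 was at -0.82, but this takes arrays of the same experiment as independent.

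With quantile normalization, Glul was at 0.051 for NMDA in the NOS set and 0.23 for the NOS minus MEK difference, and Sparc at 0.052 for nitroarginine minus control. With median and MAD scaling, Gfap probe 91 was at 0.095 (both sets) and 0.015 (MEK set) for NMDA, Glul at 0.036 (NOS set) and 0.093 (NOS minus MEK), and Sparc at 0.019 for nitroarginine minus control. With the running median over 25 probes removed, NMDA minus control was 0.073 (Gfap probe 91) and 0.064 (Glul) over both sets, 0.015 and 0.067 in the MEK set, and 0.062 (Glul) in the NOS set. Gfap probe 888 was then at -0.040 for NOS minus MEK, Glul at 0.11 for PD98059 minus control, Gfap probe 91 at -0.056 for nitroarginine minus NMDA, Sparc at 0.053 for nitroarginine minus control, and Glul at -0.040 for mouse minus rat. The cause of these changes was not tested.

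Leaving out each array in turn gave ranges of -0.22 to 0.092 (Gfap probe 91) and -0.30 to 0.24 (Glul) for NMDA over both sets. In the MEK set the ranges were -0.081 to 0.25 (Gfap probe 888) and -0.26 to 0.22 (Glul). In the NOS set they were -0.19 to 0.43 (Gfap probe 91), -0.57 to 0.51 (Glul) and -0.18 to 0.25 (Sparc), and -0.55 to 0.53 (Glul) for NOS minus MEK. For PD98059 minus NMDA they were -0.13 to 0.066 (Gfap probe 91) and -0.28 to 0.14 (Sparc), and for PD98059 minus control -0.048 to 0.28 (Gfap probe 888) and -0.24 to 0.24 (Glul). For nitroarginine minus NMDA they were -0.41 to 0.64 (Gfap probe 91), -0.78 to 0.64 (Glul) and -0.25 to 0.18 (Sparc). For nitroarginine minus control they were -0.29 to 0.76 (Gfap probe 91), -0.035 to 0.11 (Gfap probe 888), -0.81 to 0.61 (Glul) and -0.19 to 0.19 (Sparc). In the NOS set such a range also holds the difference between experiments. The count of called probes ran from 0 to 1 for NMDA over both sets and in the MEK set, for NOS minus MEK and for PD98059 minus control, with 1 only without MEK set control replicate 2. The filter to brighter probes removed Gfap and Sparc, which have no value there, and kept Glul.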

Other observations

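Probes in adjacent rows of the deposited table ran alike more than other pairs did. Over the 12 rat arrays the median r of 1150 adjacent pairs was 0.52, against 0.021 over all pairs of probes, and 16.9% of adjacent pairs were above 0.9, against 5.55% of all pairs. Over the 9 arrays outside NOS experiment 2 the medians were 0.35 and 0.0088. Glul and Dgcr8, in adjacent rows, are such a pair.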
